A study of Mus musculus with 2 samples.

Results

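The genes described here are 10 members of the vascular endothelial growth factor (VEGF) and angiopoietin system, chosen by name from the 32285 features of both deposited matrices. They are 5 ligands (Vegfa, Vegfb, Vegfc, Angpt1 and Angpt2) and 5 receptors (Flt1, Kdr, Flt4, Tek and Tie1). All 10 were detected in both libraries. VEGF ligands and angiopoietins are secreted proteins, and their receptors are tyrosine kinases of the vessel wall. Vegfa binds the receptors encoded by Flt1 and Kdr. Kdr carries most of the growth signal in blood vessels, while Flt1 binds Vegfa tightly, signals weakly and, as a secreted splice form, acts as a decoy. Vegfb binds Flt1, and Vegfc binds Flt4, the receptor of lymphatic endothelium. Angpt1 activates the receptor encoded by Tek and keeps vessels quiet and tight, Angpt2 acts on the same receptor mostly as an antagonist, and Tie1 is a partner of Tek with no firmly known ligand of its own. In brain and spinal cord the ligands are known from glia, neurons and the cells around vessels, the receptors from endothelium, and Vegfa is a classic target of the hypoxia-inducible factors (HIF).

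The nuclei came from spinal cords of iNeuroD1GFP mice, a line in which tamoxifen switches on the proneural transcription factor NeuroD1 and whose name includes GFP. The mice were male and 8 weeks old by the labels, which place the injury at postnatal day 60. Tamoxifen was given on days 5 to 8 after the injury, with a daily dose of 100 mg/kg, and tissue was taken on day 10. The injury core gave 1 library and the region labelled distal in the sample titles, peri-injury in the protocol, gave the other. The protocol names 3 mice and does not say whether they were pooled. No uninjured, untreated or transgene-free sample is among the samples, and the labels do not name the cell type in which the transgene acts. Each value therefore describes 1 library and has no replicate check, no p-value is given, and all intervals are exact 95% intervals for counting error, to which the variation between nuclei, animals and dissections adds.

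The core library held 16362 barcodes and 30469263 unique molecular identifiers (UMIs), and the distal library 7452 barcodes and 19049572 UMIs, with medians of 1303 UMIs per nucleus in the core and 1743 in the distal region. The 2 libraries shared 38 barcode sequences. Nuclei were placed in 12 marker-defined classes by clusters made without the 10 genes, and no marker list holds any of them. Each class is called by its markers alone, so "endothelial" means endothelial-like throughout. The core library was unlike the distal one in its make-up: 37.4% of core nuclei, against 0.739% of distal nuclei, fell in a cluster that varied little more than random draws from a single shared profile and is called background-like below. There were 55 core and 83 distal endothelial nuclei (medians 1203 and 1098 UMIs), 117 core and 327 distal fibroblasts, 78 core and 566 distal astrocytes, 36 core and 268 distal oligodendrocyte precursor cells (OPCs), 552 core and 2118 distal oligodendrocytes, and 8860 core and 1963 distal neurons. Myeloid nuclei numbered 1 in the core and 307 in the distal region. All 14 endothelial markers were detected in the endothelial class of both libraries, but the class also held UMIs of other types. Its summed neuron markers were at 8137 CPM (UMIs per 1000000 UMIs of the class) in the core and 4497 in the distal region, its oligodendrocyte markers at 425 and 4791, and its mural (pericyte and smooth muscle) markers at 4018 and 3090. The part of these UMIs in the results was not tested. Levels are compared within a gene only, since the 3′ counts are not scaled by length.

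As the receptors turned out to share a cell class, the RefSeq sequences before their start sites are shown here for a receptor with and a receptor without a match to AGGAAG, a short form of the site bound by ETS factors, which are known regulators of endothelial genes. Each sequence runs 5′ to 3′ over the 250 bases before the transcription start (RefSeq, GRCm38.p6). Capitals mark AGGAAG.
Flt1, chr5:147726012-147726261, minus strand: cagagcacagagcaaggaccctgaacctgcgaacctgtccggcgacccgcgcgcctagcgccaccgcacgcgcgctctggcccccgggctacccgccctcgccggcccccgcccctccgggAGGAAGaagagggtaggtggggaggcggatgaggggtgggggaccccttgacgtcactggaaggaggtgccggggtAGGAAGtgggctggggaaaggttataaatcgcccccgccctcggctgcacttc
Tek, chr4:94739039-94739288, plus strand: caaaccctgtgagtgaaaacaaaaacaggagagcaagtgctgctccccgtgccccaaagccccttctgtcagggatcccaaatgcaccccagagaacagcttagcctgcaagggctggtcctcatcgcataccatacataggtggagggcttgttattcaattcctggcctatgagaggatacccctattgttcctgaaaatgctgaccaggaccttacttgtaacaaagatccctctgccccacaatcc
A match was sought to AGGAAG on both strands, and to ACGTG and GCGTG, the core of the hypoxia response element bound by HIF. The RefSeq sequences used here matched 8 of the 10 genes, all but Angpt1 and Angpt2, with 9 starts in all, since Vegfa has 2. AGGAAG was found 2 times before Flt1, with first bases 129 and 53 bases before the start, and 1 time on the other strand before Tie1. It was thus in 2 of 5 receptor windows and in 0 of 4 ligand windows, against 29.5% of all 32851 RefSeq windows of that length, of which 6.25% hold 2 or more. ACGTG or GCGTG was in the windows of Flt1, Kdr, Vegfb and the second Vegfa start, against 38.6% of all windows. As GENCODE annotates the genes, the windows of Flt4 and of the second Vegfa start lie wholly inside the gene, and those of Kdr and Tie1 partly. These matches describe letters in a window and say nothing of binding.

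Flt1, Kdr, Tek and Tie1 were found in endothelial nuclei at levels far above those of every other class with at least 50 nuclei, in both libraries. Flt1 had 339 UMIs in core endothelial nuclei, or 3431 CPM (3075 to 3816), and 254 UMIs in distal endothelial nuclei, or 2193 CPM (1931 to 2479). At least 1 Flt1 UMI was present in 81.8% of core and 77.1% of distal endothelial nuclei, and in 0.181% of core and 1.04% of distal oligodendrocytes (medians 1301 and 1825 UMIs), a class that should lack it. Flt1 was 1592-fold higher in endothelial nuclei than in all other named classes together in the core (1167 to 2216) and 193-fold higher in the distal region (157 to 237). In this and later ratios to the other classes, each class weighs by its UMIs. In the core these are mostly neuronal (20072081 UMIs, against 840077 in oligodendrocytes), so such ratios do not compare the libraries. Fibroblasts alone had Flt1 at 33.1 CPM in the core and 134 CPM in the distal region.

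Kdr had 17 UMIs in core endothelial nuclei, or 172 CPM (100 to 275), and 10 in distal ones, or 86.3 CPM (41.4 to 159), against 0.234 CPM in the other core classes and 1.43 CPM in the other distal classes. Tek, the angiopoietin receptor, had 41 UMIs in core endothelial nuclei, or 415 CPM (298 to 563), and 40 in distal ones, or 345 CPM (247 to 470), which was 33.4-fold (23.4 to 46.6) and 38.8-fold (26.4 to 56.0) the level of the other classes. Tie1 had 14 UMIs or 142 CPM (77.5 to 238) in the core and 12 UMIs or 104 CPM (53.5 to 181) in the distal region. Of its UMIs in all kept nuclei, 70.0% in the core and 54.5% in the distal region lay in endothelial nuclei. Flt4 was rare everywhere, with 6 endothelial UMIs in the core, or 60.7 CPM, and 3 in the distal region, or 25.9 CPM, so that its level in endothelium rests on very few molecules. In lymphatic vessels Flt4 is the receptor of Vegfc, and most of its core UMIs, 20 of 33, fell in neurons at only 0.996 CPM, near the 0.969 CPM of background-like nuclei.

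Enough UMIs for a comparison with the other classes (at least 10 CPM on one side, 20 UMIs in all and 10 expected in the smaller group) were had by 3 of the 5 receptors, Flt1, Kdr and Tek, and all 3 were at least 2-fold higher in endothelial nuclei in both libraries. Of all genes compared, 26.6% in the core and 18.8% in the distal region were at least 2-fold higher. The 3 receptors had a median log2 ratio of 5.08 in the core and 4.66 in the distal region, beside 0.16 and 0.10 over all genes. The 5 receptors together stood at 4220 CPM (3825 to 4646) in core and 2754 CPM (2460 to 3073) in distal endothelial nuclei, 265-fold (229 to 307) and 120-fold (102 to 141) the other classes.

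**Figure D1:**
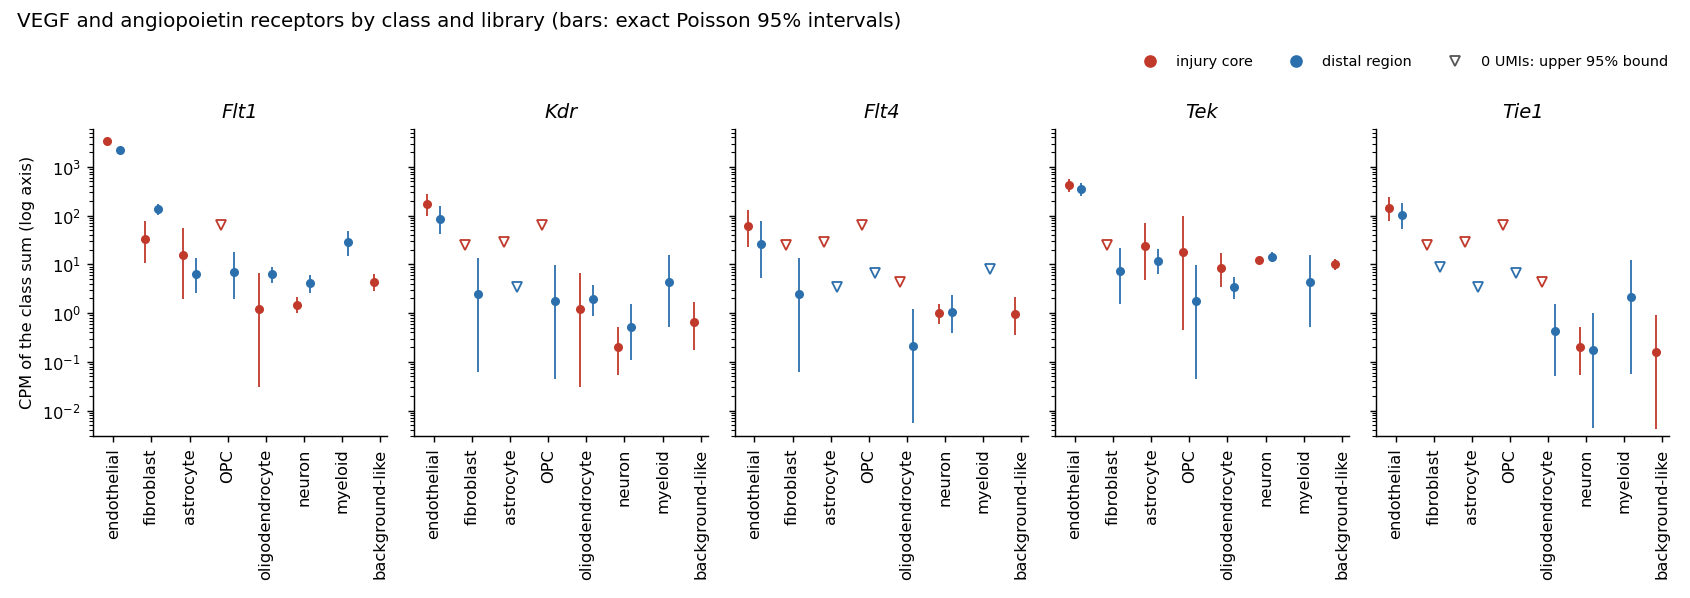
CPM of each receptor (log axis) in the summed nuclei of each class, injury core left and distal region right of each tick; bars are exact Poisson 95% intervals and open triangles are upper bounds where a class had 0 UMIs. Groups with fewer than 36 nuclei, and the 55 distal background-like nuclei, are not drawn. Each receptor is highest in endothelial nuclei among the classes drawn, with Flt1 at 3431 CPM in the core and 2193 CPM in the distal region, though the Flt4 intervals overlap those of other classes. Flt1 is next highest in fibroblasts.

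Within single endothelial nuclei the receptors were often found together. In the core 48 of 55 endothelial nuclei (87.3%) and in the distal region 71 of 83 (85.5%) held a UMI of at least 1 receptor, and 47.3% and 42.2% held UMIs of 2 or more. Flt1 and Tek were both seen in 30.9% of core and 31.3% of distal endothelial nuclei, and Flt1 and Kdr in 25.5% and 9.64%. Flt1 varied widely between nuclei: its CPM per nucleus ran from 0 to 7374 with a median of 2026 in the core, and from 0 to 7707 with a median of 1696 in the distal region, so the 2 ranges overlap almost wholly. The ligands were scarce in these nuclei, with 5 UMIs of any ligand in 55 core and 13 in 83 distal endothelial nuclei. Vegfa had 0 core and 3 distal UMIs there, and Angpt2, known as a product of activated endothelium, likewise 0 and 3. The 0 in the core leaves room for up to 37.3 CPM of either by the Poisson bound.

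The endothelial class was made of 3 sub-clusters that differed in receptor level. Sub-cluster 16a, with 19 core and 31 distal nuclei, had Flt1 at 4727 CPM (4164 to 5346) in the core and 3661 CPM (3109 to 4283) in the distal region. Of the 254 Flt1 UMIs of core 16a, 83 came from 1 deep nucleus. Sub-cluster 16b, with 36 core and 13 distal nuclei, had Flt1 at 1886 CPM (1506 to 2332) and 873 CPM (517 to 1380). Flt1 was thus 2.51-fold (1.95 to 3.24) higher in 16a than in 16b in the core and 4.19-fold (2.57 to 7.26) higher in the distal region, where 21.4% and 28.9% of the genes compared were at least 2-fold higher. Tek was also higher in 16a than in 16b in the core, at 614 against 177 CPM (3.46-fold, 1.57 to 8.67), but in the distal region it stood at 375 against 340 CPM, a ratio of 1.11 (0.430 to 3.18). Nuclei of 16a were deeper than those of 16b, with medians of 1784 against 1091 UMIs in the core and 1243 against 788 in the distal region, and the part of depth in the difference was not tested. Slco1a4, an organic anion transporter of the blood-brain barrier, was higher in 16a as well, at 2736 against 1686 CPM in the core and 3215 against 825 CPM in the distal region.

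Sub-cluster 16c held 39 distal and 0 core nuclei and was led by Vwf, the clotting factor carrier of larger vessels, and Il1r1, the interleukin-1 receptor. Flt1 in sub-cluster 16c was at 1520 CPM (1206 to 1892), so that 16a stood 2.41-fold above it (1.83 to 3.19), beside 13.8% of genes at least 2-fold higher in 16a. Tek was at 375 CPM in distal 16a and 323 CPM in 16c, a ratio of 1.16 (0.550 to 2.45). That interval holds both 1 and the Flt1 ratio of 2.41, so whether Tek followed Flt1 cannot be told. Kdr had 6 UMIs in distal 16a and 1 in 16c, too few to compare.

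Between the libraries, Flt1 was 1.56-fold higher in core than in distal endothelial nuclei (1.33 to 1.85), and the 5 receptors together were 1.53-fold higher (1.32 to 1.78). Kdr stood at a ratio of 1.99 (0.862 to 4.87), Tie1 at 1.37 (0.587 to 3.24), and Tek at 1.20 (0.758 to 1.91). Thinning to 1000 UMIs left out shallower nuclei, so that 40 of 55 core and 49 of 83 distal endothelial nuclei remained. In these, Tek was at 275 CPM (137 to 492) in the core and 367 CPM (218 to 581) in the distal region. This turns the direction of the Tek difference, with intervals that overlap. Of the 4 receptors with enough UMIs, 0 passed 2-fold, where 15.9% of all 2399 genes compared in endothelial nuclei did. Kdr passed it at Leiden resolution 0.5, with at least 500 genes per nucleus, with the top doublet scores removed and with nuclei classed one by one. Their median log2 ratio was 0.54, beside 0.09 over all genes.

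The size of that difference moved with the nuclei taken. The most common sub-cluster was 16b in the core, with 65.5% of endothelial nuclei, and 16c in the distal region, with 47.0%. Without 16c the summed ratio was 1.25 (1.05 to 1.48). Within 16a Flt1 had a ratio of 1.29 (1.05 to 1.59) and within 16b of 2.16 (1.29 to 3.82). A single core nucleus of 11284 UMIs carried 98 of the 417 core receptor UMIs, 83 of them Flt1, while the richest distal nucleus carried 22. Both lay in 16a, where the core nucleus gave 83 of the 254 core Flt1 UMIs. The ratio within 16a was not rerun without them. Without these 2 nuclei the summed ratio was 1.39 (1.18 to 1.63). With nuclei thinned to 1000 UMIs and shallower ones left out it was 1.14 (0.895 to 1.44), an interval that includes 1. This value thus differs from the main one in the nuclei taken as well as in depth. Other endothelial genes are given as a scale: Cldn5, a tight junction protein, had a core over distal ratio of 1.49 (1.02 to 2.18), and Slco1a4 of 1.19 (0.982 to 1.44).

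**Figure D2:**
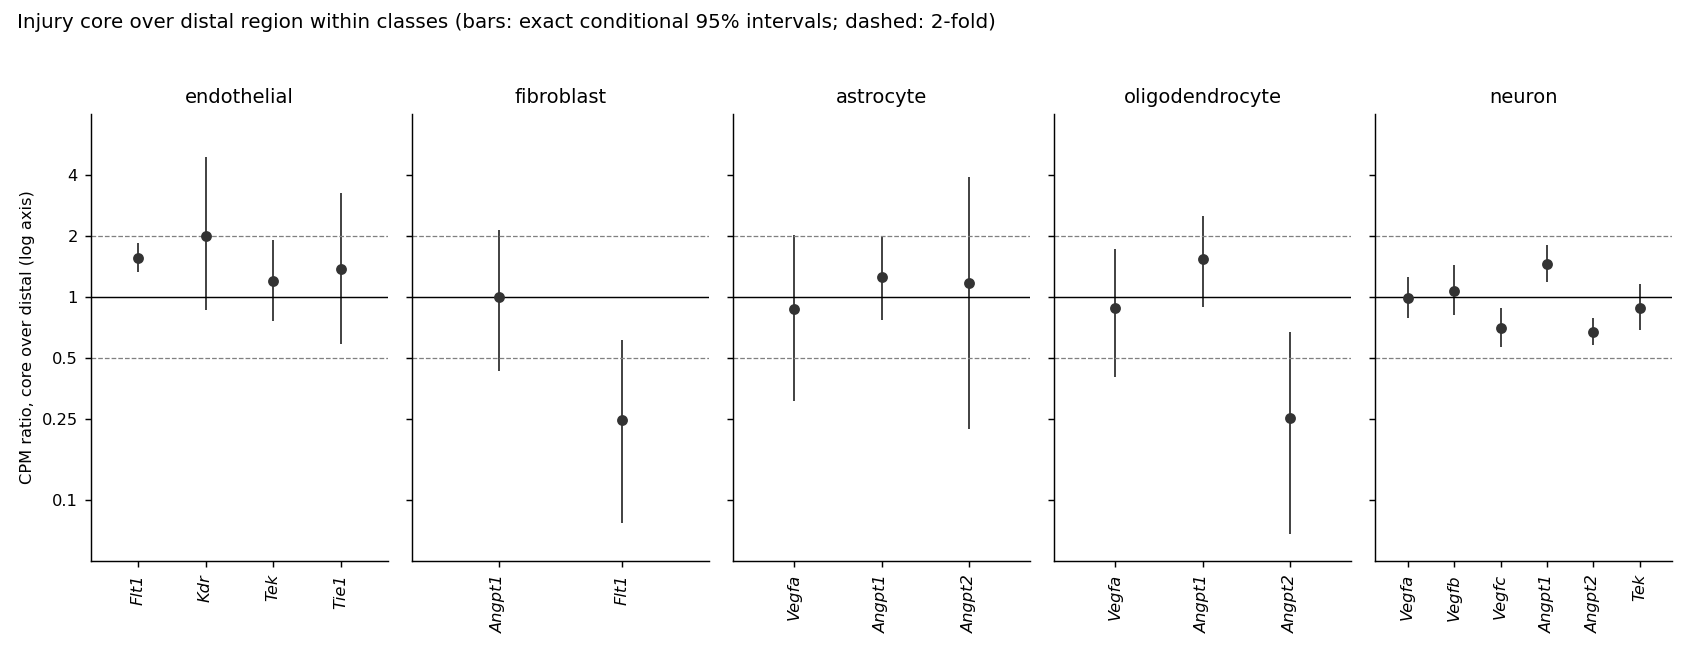
Ratio of CPM in the injury core over CPM in the distal region (log axis) for the genes with enough UMIs to compare in the 5 classes with at least 50 nuclei in both libraries; bars are exact conditional 95% intervals and lines mark equality and the 2-fold limits. Flt1 in fibroblasts (0.247) and Angpt2 in oligodendrocytes (0.254) lie below the lower limit, and in neurons Angpt1 lies above 1 while Vegfc and Angpt2 lie below it.

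Flt1 was also found outside the endothelium. Mural nuclei held 8 UMIs over 7 nuclei in the core, or 854 CPM (369 to 1683), and 15 over 29 nuclei in the distal region, or 396 CPM (222 to 653), but endothelial marker UMIs were at 976 CPM in distal mural nuclei, so Flt1 of neighbouring endothelium cannot be told apart from their own. Fibroblasts held 5 Flt1 UMIs in the core, or 33.1 CPM (10.7 to 77.2), and 55 in the distal region, or 134 CPM (101 to 175). The core level was lower, with a ratio of 0.247 (0.0770 to 0.611), and Flt1 was the 1 of 2 compared genes past 2-fold in fibroblasts, where 14.1% of all genes were at least 2-fold lower in the core and 23.0% passed 2-fold in either direction. The other, Angpt1, stood at 66.2 CPM in core and 65.9 CPM in distal fibroblasts.

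The fibroblast Flt1 was not spread evenly. Distal sub-clusters 11a and 11d, grouped after their values were seen, had Flt1 at 207 CPM (152 to 275) from 47 UMIs, with a UMI in 20.7% of 193 nuclei. Both were led by Ranbp3l, Bmp6 and Aldh1a2. The other 4 distal fibroblast sub-clusters had 43.8 CPM (18.9 to 86.2) from 8 UMIs, with a UMI in 5.97% of 134 nuclei. The ratio was 4.73 (2.22 to 11.6), in a comparison where 8.48% of genes were at least 2-fold higher. Median depths were alike, at 1074 and 1036 UMIs. Summed endothelial markers were alike too, at 273 CPM, with 10 of 14 detected, in 11a and 11d and 263 CPM, with 10 of 14 detected, in the others. Flt1 per 100 endothelial marker UMIs was 75.8 in 11a and 11d, 16.7 in the other fibroblasts and 23.8 in distal endothelial nuclei. Among the 4 others, 11e shared Ranbp3l and Bmp6 as leading genes and had Flt1 at 86.6 CPM (28.1 to 202) from 5 UMIs in 32 nuclei. Cdh5 and Pecam1 were detected in both fibroblast groups, while Adgrl4 and Ly6c1 were at 0 in both. Cldn5 and Slc7a5 were detected in 11a and 11d only, and Emcn and Cyyr1 in the other fibroblasts only. The part of endothelial RNA in the fibroblast Flt1 was not tested.

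The core fibroblasts came largely from other sub-clusters, with 48.7% in 11e, whereas 59.0% of distal fibroblasts and 17.1% of core fibroblasts lay in 11a and 11d. All 5 core Flt1 UMIs fell in the 20 core nuclei of 11a and 11d, at 218 CPM (70.8 to 509) against 207 CPM in the distal region, a ratio of 1.05 (0.327 to 2.63). The other 97 core fibroblasts held 0, which allows up to 28.8 CPM by the Poisson bound. Their distal counterparts were at 43.8 CPM from 8 UMIs, a ratio of 0 (0 to 0.836), so outside 11a and 11d the core level was lower. Within 11a and 11d the core level was thus not apart from the distal one at this depth.

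Angpt1 was highest in astrocytes in both libraries, among classes with at least 50 nuclei. It had 22 UMIs in core astrocytes, or 173 CPM (108 to 261), and 149 in distal astrocytes, or 137 CPM (116 to 160), with a UMI in 21.8% and 20.7% of nuclei. In endothelial nuclei, at similar median depths, the shares were 1.82% in the core and 3.61% in the distal region. Angpt1 in astrocytes was 6.31-fold (3.92 to 9.64) the level of the other core classes and 6.08-fold (4.95 to 7.45) that of the other distal classes. Core background-like nuclei had Angpt1 at 34.1 CPM (29.6 to 39.0), so core astrocytes stood 5.06-fold above them (3.11 to 7.87). The core astrocyte level was lower, at 102 CPM (48.8 to 187), at Leiden resolution 2.0 and at 109 CPM (46.9 to 214) with at least 500 genes per nucleus. The distal level was then higher, at 165 CPM (138 to 196) and 175 CPM (146 to 207). Over 7 alternatives the distal level ran from 119 to 185 CPM and left its main interval in 4. Core neurons (27.2 CPM) and oligodendrocytes (25 CPM) had no more Angpt1 than the background-like nuclei.

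Vegfa was highest in OPCs in the distal region, with 47 UMIs or 83.4 CPM (61.3 to 111). Distal astrocytes had 59 UMIs or 54.1 CPM (41.2 to 69.8), so that OPCs stood 1.54-fold above them (1.03 to 2.30). Core OPCs held 2 Vegfa UMIs, or 35.1 CPM (4.25 to 127), and core astrocytes 6, or 47.1 CPM (17.3 to 102), with intervals that overlap the distal ones. Committed oligodendrocyte precursors had Vegfa at 71.9 CPM in the core, from 2 UMIs, and 54.4 CPM in the distal region, from 12. Neurons and oligodendrocytes were lower, at 17.2 and 11.9 CPM in the core and 17.4 and 13.6 CPM in the distal region, and the core background-like nuclei stood at 15.3 CPM (12.4 to 18.8), so neuronal Vegfa in the core was not apart from background (ratio 1.12, 0.893 to 1.43). At least 1 Vegfa UMI was seen in 14.6% of distal OPCs and 9.36% of distal astrocytes, against 2.93% of distal oligodendrocytes and 1.30% of distal myeloid nuclei. After thinning to 1000 UMIs the shares were 5.70%, 5.00%, 1.68% and 0%, the last over 170 nuclei, which allows up to 2.15%.

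OPCs also held Angpt1, at 52.7 CPM from 3 UMIs in the core and 87.0 CPM (64.4 to 115) from 49 UMIs in the distal region. Of the 5 ligands in distal astrocytes, Vegfa and Angpt1 were at least 2-fold above the other classes, where 9.33% of all genes were. In distal OPCs the same 2 of 3 compared ligands were, where 5.62% of genes were, and in core astrocytes Angpt1, the 1 ligand compared, was, where 12.5% of genes were. Vegfb, which binds Flt1, ranged from 6.62 to 20.2 CPM in the core and from 6.54 CPM in myeloid nuclei to 31.7 CPM in fibroblasts in the distal region, among classes with at least 50 nuclei and any UMI, and in neurons it was at 12.3 CPM in the core and 11.4 CPM in the distal region.

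**Figure D3:**
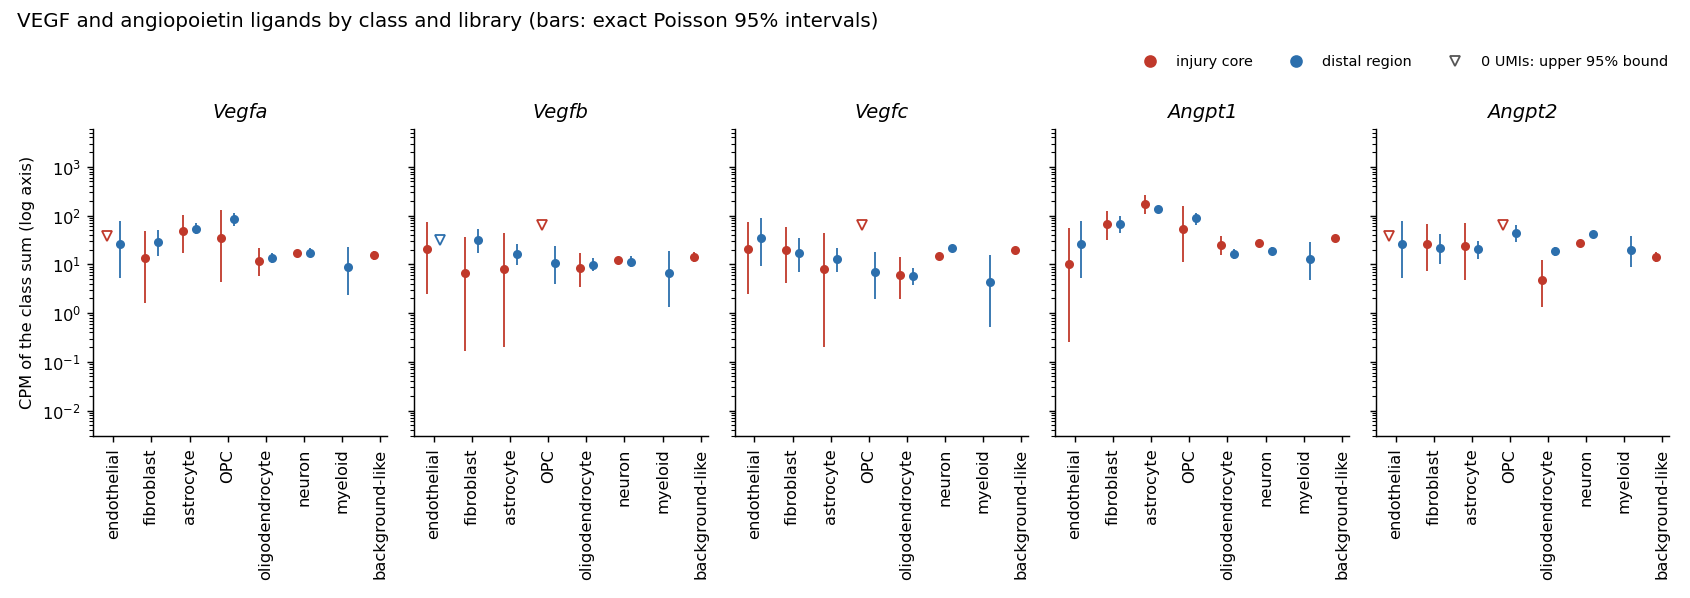
CPM of each ligand (log axis) in the summed nuclei of each class, injury core left and distal region right of each tick; bars are exact Poisson 95% intervals and open triangles are upper bounds where a class had 0 UMIs. Angpt1 is highest in astrocytes (173 CPM in the core, 137 CPM in the distal region) and Vegfa in distal OPCs (83.4 CPM).

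Among astrocytes of the distal region, sub-cluster 9a and sub-clusters 9b and 9c had opposite orders of Vegfa and Angpt1. The sub-clusters were made without these genes, but the groups compared were set after seeing the data. Sub-cluster 9d was left out of them and is given below. Sub-cluster 9a, with 178 distal nuclei, was led by Slc7a10, a serine and glycine transporter, and Trp63. Sub-clusters 9b and 9c, with 309 distal nuclei together, had more Gfap, the intermediate filament of reactive and fibrous astrocytes (163 CPM in 9a against 1694 CPM in 9b and 9c), and more A2m, a protease inhibitor (38.1 against 605 CPM). Vegfa was at 111 CPM (75.8 to 156) in 9a from 32 UMIs, and at 25 CPM (12 to 46) in 9b and 9c from 10 UMIs, a ratio of 4.43 (2.13 to 10.1). Angpt1 was at 114 CPM (78.6 to 160) in 9a from 33 UMIs, and at 242 CPM (197 to 296) in 9b and 9c from 97 UMIs, a ratio of 0.471 (0.307 to 0.706). Both passed 2-fold, in opposite directions, where 5.70% of 5864 genes were at least 2-fold higher in 9a and 9.31% at least 2-fold lower. Vegfa was seen in 15.2% of the nuclei of 9a and 3.24% of those of 9b and 9c, and Angpt1 in 12.9% and 25.6%, at median depths of 1354 and 1165 UMIs.

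Core astrocytes could not be set against this comparison, since 65 of 78 lay in sub-cluster 9d, which had a median of 1286 UMIs in the core and 4094 in the distal region. In 9d, Angpt1 was at 173 CPM (104 to 269) in the core and 47.3 CPM (28.5 to 73.9) in the distal region, each from 19 UMIs, a ratio of 3.64 (1.83 to 7.27). Vegfa in 9d was at 27.2 CPM in the core, from 3 UMIs, and 42.4 CPM in the distal region, from 17, a ratio of 0.643 (0.121 to 2.22). Although 9d was led by Slc7a10 and Trp63 as 9a was, distal Vegfa and Angpt1 were both lower in 9d than in 9a. Over all astrocytes the core over distal ratio was 1.26 (0.768 to 1.98) for Angpt1 and 0.870 (0.307 to 2.01) for Vegfa. Astrocyte Angpt1 was instead lower in the core at Leiden resolution 2.0 and with at least 500 genes per nucleus, with overlapping intervals. It stayed higher in the core under the other alternatives run. Of 3 genes compared, 0 passed 2-fold, where 29.0% of all 8242 genes did. The depth of distal 9d nuclei is that of nuclei that may hold more than one cell, and its part in these values was not tested.

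**Figure D4:**
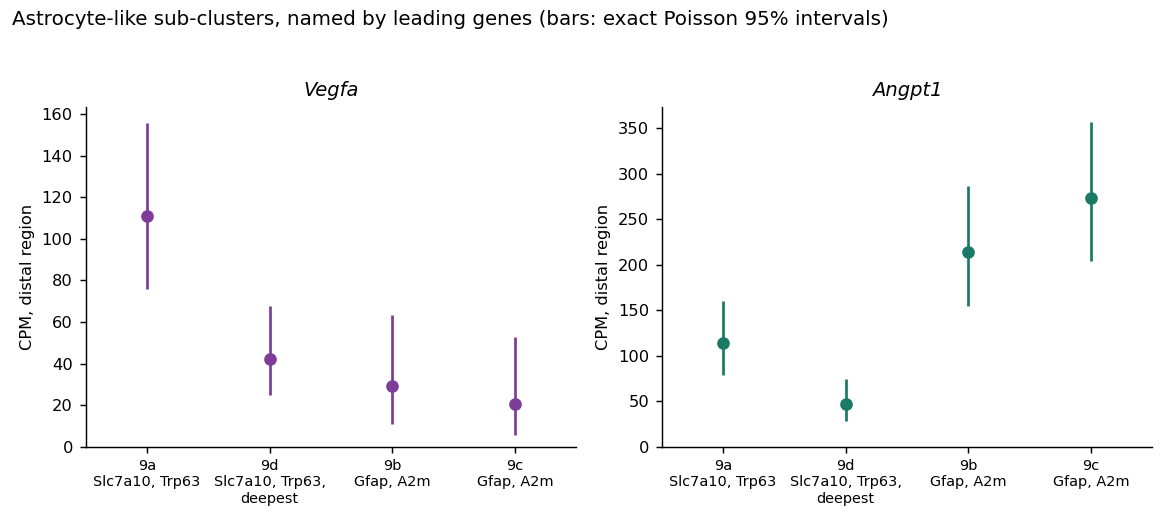
CPM of Vegfa (left) and Angpt1 (right) in the 4 astrocyte sub-clusters of the distal region, labelled by leading genes, with exact Poisson 95% intervals. Vegfa is highest in 9a (111 CPM) and Angpt1 higher in 9b and 9c (242 CPM together) than in 9a (114 CPM).

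In neurons all 5 ligands were detected at low levels, and over all neurons the differences between the libraries were below 2-fold, although Angpt1 passed it under 2 alternatives. Angpt2 had 561 UMIs in core neurons, or 27.9 CPM (25.7 to 30.4), and 235 in distal neurons, or 41.4 CPM (36.3 to 47.0), a ratio of 0.675 (0.579 to 0.790). Vegfc stood at 14.9 CPM (13.3 to 16.7) in the core and 21.1 CPM (17.5 to 25.3) in the distal region, a ratio of 0.705 (0.568 to 0.878). Angpt1 stood at 27.2 CPM (25 to 29.6) in the core and 18.7 CPM (15.3 to 22.6) in the distal region, a ratio of 1.46 (1.18 to 1.81). That ratio was 2.92 (2.06 to 4.26) with the top 5% of doublet scores removed and 2.17 (1.41 to 3.49) after thinning to 1000 UMIs. Vegfa (0.989, 0.788 to 1.25) and Vegfb (1.07, 0.811 to 1.43) were near equality. Of 6 genes compared, Tek being the sixth, 0 passed 2-fold, where 5.62% of all 9619 genes did, and their median log2 ratio was -0.07, beside -0.01 over all genes.

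The neurons of the 2 libraries were not the same mixture. Cluster 1 held 50.6% of core and 3.16% of distal neurons, while the largest share of distal neurons, 20.2%, lay in cluster 7. Hoxd11 and Hoxc10, transcription factors of the caudal cord, were at 19.6 and 39.0 CPM in core neurons and at 0 and 3.17 CPM in distal neurons, so the region and the level along the cord cannot be told apart. Angpt1 was 2.14-fold (1.76 to 2.60) higher in cluster 1 than in the other core neurons, where 0.721% of 9152 genes were at least 2-fold higher. It was at 35.5 CPM in core and 41.6 CPM in distal nuclei of that cluster. Without cluster 1 the Angpt1 ratio was 0.934 (0.718 to 1.22), the sign of the difference having changed, while Angpt2 was at 0.562 (0.462 to 0.683) and Vegfc at 0.739 (0.573 to 0.954). The neurons left still differ in mixture. They include cluster 5b, with 263 distal and 40 core nuclei and more Angpt1 than the other distal neurons (below). Its part in the 0.934 was not tested, and within 6 of the 8 clusters compared below Angpt1 was higher in the core. Core neurons outside cluster 1 had Angpt1 at 16.6 CPM (14 to 19.5), and core background-like nuclei at 34.1 CPM. The part of free RNA in the neuronal Angpt1 of the core was not tested. Cluster 1 varied 1.23 times as much as random draws from a shared profile, against 1.1 times in background-like nuclei and 1.26 to 1.63 times in the other neuron clusters, and the limit between neurons and background was set after the data were seen.

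Of the 8 neuron clusters with at least 50 nuclei in both libraries, Angpt2 was lower in the core in 8, with ratios from 0.384 to 0.979 and 1 interval wholly below 1, in cluster 7. Angpt1 was higher in the core in 6, with 2 intervals wholly above 1. In these 2, clusters 4 and 6, it was at 16.4 against 3.27 CPM and at 15.8 against 3.08 CPM, each distal value from 2 UMIs. Vegfc was lower in 5, with 2 intervals wholly below 1, and Vegfa was higher in 5 and lower in 3. Over all kept nuclei of each library, 7 of the 10 genes could be compared and 0 passed 2-fold, where 18.9% of genes did. Angpt2 lies on the opposite strand inside Mcph1, a gene of chromosome condensation, which stood at 134 CPM in core neurons, and no source used here says whether the counting used strand, so part of the Angpt2 UMIs may belong to Mcph1.

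**Figure D5:**
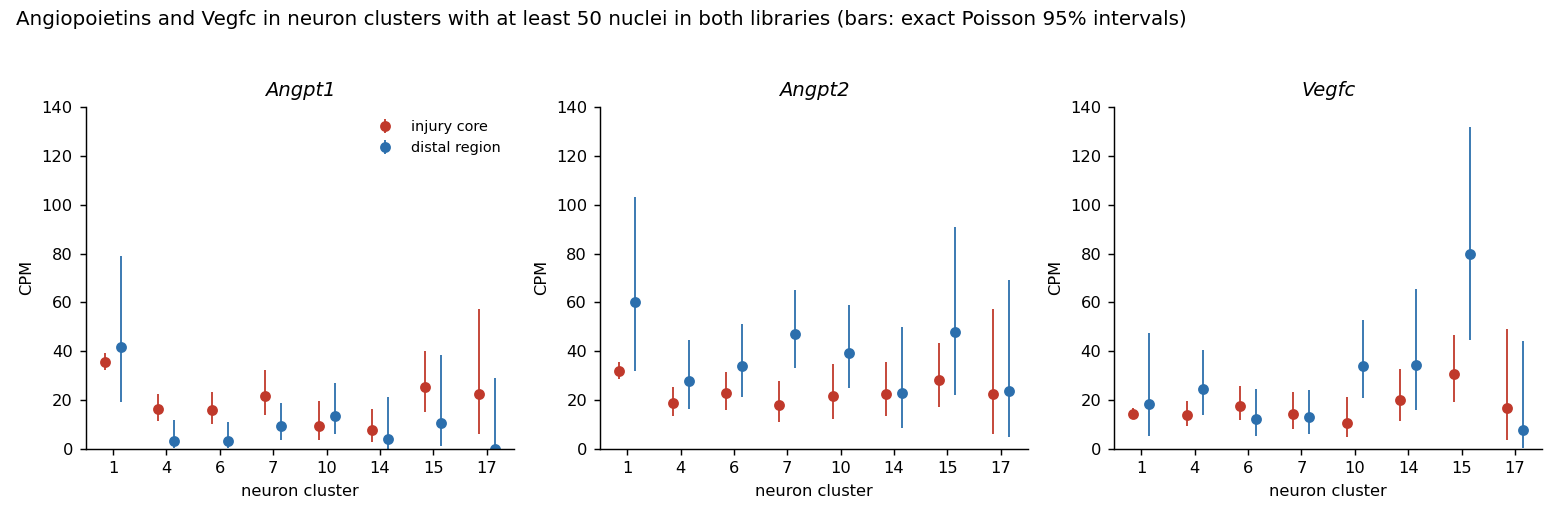
CPM of Angpt1, Angpt2 and Vegfc in the 8 neuron clusters with at least 50 nuclei in both libraries, injury core left and distal region right of each tick, with exact Poisson 95% intervals. Angpt2 is lower in the core in 8 of 8 clusters, most intervals overlapping, and Vegfc is highest in distal cluster 15 (79.8 CPM).

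Some neuron clusters stood out for a ligand within a library. In cluster 15, led by Gucy2d, a guanylate cyclase, Vegfc was at 30.8 CPM in the core against 14.3 CPM in the other core neurons, a ratio of 2.16 (1.33 to 3.33), and at 79.8 CPM in the distal region against 19.1 CPM, a ratio of 4.17 (2.26 to 7.20). These are 22 and 15 UMIs, and 3.33% of genes in the core and 6.64% in the distal region were at least 2-fold higher in that cluster. In distal cluster 5b, with more Chat and Prph, genes of motor neurons, Angpt1 was at 36.5 CPM against 12.4 CPM in the other distal neurons, a ratio of 2.95 (1.98 to 4.40) where 3.99% of genes were at least 2-fold higher. Tek in 5b was at 21.6 against 11.4 CPM (1.89, 1.17 to 3.02) and Angpt2 at 51.4 against 37.9 CPM (1.36, 1.02 to 1.79). Nuclei of 5b were deeper, with a median of 4085 against 2074 UMIs. Over all neurons Tek was at 12.5 CPM in the core and 14.1 CPM in the distal region, and the core level was not apart from the 10.2 CPM of background-like nuclei (1.23, 0.929 to 1.65).

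Across classes, neurons held 75.9% of the core and 42.3% of the distal Angpt2 UMIs, and their Angpt2 level was 3.19-fold (1.81 to 6.21) that of the other core classes and 1.99-fold (1.62 to 2.45) that of the other distal classes. In the core it was also 1.97-fold (1.57 to 2.49) above background-like nuclei. Mcph1, on the opposite strand, was higher in neurons too, at 134 CPM in the core and 102 CPM in the distal region. It was at 110 and 62.4 CPM in astrocytes and at 67.9 and 55.5 CPM in oligodendrocytes. The part of Mcph1 in the neuronal Angpt2 was not tested. Distal OPCs had Angpt2 at 44.4 CPM (28.7 to 65.5) from 25 UMIs, no lower than distal neurons at 41.4 CPM, while the 36 core OPCs held 0. Neuronal Vegfc was 1.86-fold (1.02 to 3.76) the level of the other core classes and 2.62-fold (1.92 to 3.63) that of the other distal classes, but in the core it was below the 19.2 CPM of background-like nuclei, with a ratio of 0.775 (0.625 to 0.967). In the core Angpt2, 1 of 5 ligands, was at least 2-fold higher in neurons, where 2.30% of genes were. In the distal region Vegfc was, where 13.9% of genes were, and Angpt1 was at least 2-fold lower, where 16.1% were.

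In oligodendrocytes Angpt2 had 4 UMIs in the core, or 4.76 CPM (1.30 to 12.2), and 87 in the distal region, or 18.7 CPM (15 to 23.1), a ratio of 0.254 (0.0678 to 0.675). It was the 1 of 3 genes past 2-fold, where 8.62% of genes were at least 2-fold lower and 20.5% passed 2-fold in either direction. The call was lost at Leiden resolution 2.0, with a ratio of 0.545 (0.226 to 1.14), and with nuclei classed one by one, with a ratio of 0.517 (0.186 to 1.16). With at least 500 genes per nucleus no Angpt2 UMI was left in core oligodendrocytes and the interval of the ratio reached 7.66. Core oligodendrocytes lay mostly in sub-clusters 3a and 3b (97.3%) and distal ones in cluster 2 (85.4%). Within 3a and 3b, Angpt2 was at 4.95 CPM (1.35 to 12.7) in the core and 36.4 CPM (19.4 to 62.2) in the distal region, a ratio of 0.136 (0.0323 to 0.440). Mcph1, which overlaps Angpt2, had a ratio of 1.08 (0.652 to 1.83) in the same nuclei. Vegfa in 3a and 3b was at 11.1 CPM in the core and 30.8 CPM in the distal region, a ratio of 0.362 (0.132 to 0.960), and Angpt1 at 24.7 and 22.4 CPM. The distal nuclei of 3a and 3b were deeper, with a median of 2040 UMIs against 1291 in the core.

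Known partners of the receptors were examined next. Ptprb, a phosphatase that acts on the Tek product, was at 567 CPM in core and 716 CPM in distal endothelial nuclei, 159-fold (111 to 228) and 109-fold (79.8 to 149) the other classes. Nrp1, a co-receptor of Vegfa, was at 354 CPM in core and 268 CPM in distal endothelial nuclei, only 2.47-fold (1.71 to 3.44) and 1.91-fold (1.29 to 2.71) the other classes, with 146 CPM in core and 210 CPM in distal neurons. Of the 10 further ligands and co-receptors, 2 of 3 compared in the core and 1 of 4 in the distal region were at least 2-fold higher in endothelial nuclei, where 26.6% of all genes compared in the core and 18.8% in the distal region were, so the distal share is near that of all genes.

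Among 9 genes of oxygen sensing and HIF, Epas1, a HIF alpha subunit, was 1 of 2 compared genes at least 2-fold higher in endothelial nuclei in both libraries, at 708 CPM in the core and 501 CPM in the distal region. Of 13 measured HIF target genes, 3 of 3 compared were at least 2-fold higher in core endothelial nuclei and 2 of 3 in distal ones, beside the same 26.6% and 18.8% of all genes. Slc2a1, the glucose transporter of the blood-brain barrier, was at 425 and 388 CPM, and Ndrg1, a stress-response gene, at 202 and 363 CPM. Astrocyte sub-cluster 9a had Slc2a1 at 48.5 CPM against 20 CPM in 9b and 9c, a ratio of 2.42 (0.949 to 6.67). Slc2a1 is 1 of the 13 target genes, the interval includes 1, and a link with Vegfa was not tested.

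Endothelial tip and stalk genes gave 1 comparable member per library, Jag2 in the core and Pdgfb in the distal region, both at least 2-fold higher in endothelial nuclei. Jag2, a Notch ligand, stood at 132 CPM in core and 8.63 CPM in distal endothelial nuclei, the latter the worth of 1 UMI, so these levels were not compared. Jag2 was also at least 2-fold higher in distal neurons than in the other classes, where 13.9% of genes were. Endothelial nuclei held neuron marker UMIs, and the part of neuron RNA in Jag2 was not tested. Pdgfb, which draws in pericytes, stood at 91.1 CPM in core and 104 CPM in distal endothelial nuclei. Apln, a peptide of sprouting tip cells in the retina, was instead highest in astrocytes, at 102 CPM in the core and 25.7 CPM in the distal region. Of 14 signalling genes inside the cell, 1 of 6 compared was at least 2-fold higher and 1 lower in core endothelial nuclei, and 2 of 8 higher and 1 lower in distal ones. Of all genes, 26.6% in the core and 18.8% in the distal region were at least 2-fold higher and 18.2% and 14.0% at least 2-fold lower, so these counts are near those of all genes. The higher gene found in both was Foxo1, a transcription factor held in check by Tek signalling, at 314 CPM in the core and 363 CPM in the distal region. The lower one was Prkca, a protein kinase C, at 162 and 181 CPM.

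Over the 14 class and library points with at least 50 nuclei, the genes whose log2(CPM + 5) was most like that of Flt1, the receptor with the most UMIs, were Pltp (r = 0.98), Slco1a4 (0.97), Ocln (0.97), Abcc6 (0.96) and Osmr (0.96). For Angpt1, the ligand with the most UMIs, they were Gm26703 (0.90), Cdc42bpg (0.88), Gm3764 (0.87), Dnah7b (0.86) and Atp1b2 (0.86). The points of a library share its depth and its free RNA, and the 2 endothelial points carry most of the spread for Flt1.

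By the GENCODE M21 annotation of GRCm38, the genes lie as follows, with none of the 10 overlapping a gene on its own strand. Flt1 spans 147561604 to 147726011 and Kdr 75932827 to 75978458 of chromosome 5, both on the minus strand. Tek spans 94739289 to 94874976 on the plus strand and Tie1 118471191 to 118490061 on the minus strand of chromosome 4, and Flt4 49609263 to 49652739 on the plus strand of chromosome 11. Vegfa lies at 46016993 to 46032369 of chromosome 17, Vegfb at 6982473 to 6987651 of chromosome 19, Vegfc at 54077606 to 54187096 of chromosome 8, Angpt1 at 42424723 to 42676977 of chromosome 15 and Angpt2 at 18690263 to 18741562 of chromosome 8. Of these 5, Vegfc is on the plus strand and the others are on the minus strand. Angpt1 overlaps Gm17473 on the opposite strand.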

How the data were processed

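The authors deposited raw UMI counts per gene and barcode for each library, with no normalisation, written by Cell Ranger 7.1.0 per the file headers. The tools Cell Ranger and Seurat and the builds mm10 and GRCh38 stand in the submitters' processing notes with no role given. No source used here gives the annotation or whether counting used strand. Of 32285 mouse feature identifiers, 32158 occur in GENCODE M21, which gave the positions.

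A barcode was kept with 300 or more genes and no more than 5% of UMIs from mitochondria (16360 core, 7443 distal). Scrublet called 0 core doublets and 1383 distal ones at a threshold of 0.104, and was treated as having failed in the core, so doublets were left in. Counts scaled to 10000 per nucleus and log-transformed gave 2000 variable genes, 40 principal components, 15 neighbours and Leiden clusters at resolution 1.0, with both libraries together, without the 10 genes, Neurod1, Xist, Tsix, 4 Y-linked and mitochondrial genes. Large mixed clusters were clustered again. Clusters took the class with the highest marker score, or were set aside as background-like, blood and mitochondrial, or mixed or unnamed (2.49% of core, 20.1% of distal nuclei). The rules for this, and the groups of sub-clusters compared, were set after seeing the data.

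UMIs were summed by class and library and divided by all UMIs of the class to give CPM, with exact Poisson intervals, exact conditional intervals for ratios and Clopper-Pearson intervals for shares. With 1 library per region nothing was tested. Between libraries, genes were compared that reached 10 CPM in either library and 20 UMIs over both, in classes of at least 50 nuclei in both, and called past 2-fold at a ratio of at least 2 or at most 0.5. Comparisons within a library also needed at least 10 UMIs expected in the smaller group. List medians use log2 ratios with 5 CPM added. The 10 genes, the lists and the tests were chosen with earlier results of these data known. All 10 genes were named, and at most 4 per further list, those with the highest CPM in any class of at least 50 nuclei, except that genes called past 2-fold and genes that lead a cluster were named after their values were seen. Scripts were tested on simulated data and used Python 3.11.15, numpy 2.4.6, scipy 1.17.1, pandas 2.3.3, scanpy 1.11.5, leidenalg 0.10.2, scikit-learn 1.9.0 and matplotlib 3.10.9. Alternatives covered clustering, filters, doublets, classes, depth, denominators and scale.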

Additional observations from a re-analysis of the deposited data

How the results depend on the processing

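No paired analysis was possible because each region has 1 library. Of the ratios rerun under alternatives, those past 2-fold in the main analysis kept their direction. A change of direction was not counted for ratios within 2-fold, so that check says nothing of them. Some of these did change direction, such as neuronal Angpt1 (1.46 to 0.934 without cluster 1) and the summed neuronal ligands (0.904 to 1.02 with doublet scores removed). The receptor level in endothelial nuclei (4220 CPM core, 2754 CPM distal) moved beyond its interval to 3475 CPM in the core after thinning to 1000 UMIs and to 3114 CPM in the distal region with the top 5% of doublet scores removed. The distal ratio of endothelial nuclei over the other classes was 146 after thinning, against 120, and the core over distal ratio 1.14 after thinning, against 1.53. In neurons the Angpt1 ratio of 1.46 became 2.92 with the top doublet scores removed and 2.17 after thinning, and the summed ligand ratio of 0.904 became 1.02 with doublet scores removed and 0.811 with nuclei classed one by one. Of the genes compared between libraries in neurons and in endothelial nuclei, 0 passed 2-fold in the main analysis. In neurons 1 did (Angpt1) with doublet scores removed and after thinning, and 2 (Flt1 and Kdr) with no minimum of CPM or UMIs. In endothelial nuclei 1 did (Kdr, at 1.99 in the main analysis) at Leiden resolution 0.5, with at least 500 genes, with doublet scores removed and with nuclei classed one by one, and 5 with no minimum, each from few UMIs. Alternatives chosen after seeing the data gave receptor levels of 3645 CPM in the core without the richest nucleus and 3385 CPM in the distal region without sub-cluster 16c, where the ratio was 1.25. Without neuron cluster 1 the Angpt1 ratio was 0.934 and the summed ligand ratio 0.759. The cause of these moves was not tested. Distal astrocyte Vegfa (50 to 65 CPM) and the neuronal Vegfa ratio (0.898 to 1.20) moved by less than their intervals. Depth limits most of the core values outside neurons, where 1 UMI is worth 7.84 CPM in astrocytes, 10.1 CPM in endothelial nuclei and 17.6 CPM in OPCs.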

Other observations

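Flt1 was also found in distal nuclei of clusters that were wholly or mostly given no class. Sub-cluster 5d, with 103 distal nuclei, held 25 Flt1 UMIs, or 166 CPM (107 to 245), with 13 of 14 endothelial markers detected at a sum of 458 CPM and Adgrl4 at 0. Cluster 18 had 60 distal nuclei, of which the 13 of sub-cluster 18b were classed as neurons and are counted there too. It held 14 Flt1 UMIs, or 74.6 CPM (40.8 to 125), beside 4 Tek UMIs and 0 of Kdr and Tie1. In cluster 18 6 of 14 endothelial markers were detected, at a sum of 69.2 CPM, and Cldn5, Pecam1 and Cdh5 were among those at 0. Flt1 per 100 endothelial marker UMIs was 36.2 in sub-cluster 5d and 108 in cluster 18, against 22.7 over all kept distal nuclei. The part of free RNA or of mixed nuclei in these values was not tested.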
